A study of Homo sapiens with 4 samples.

Results

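ASNS encodes asparagine synthetase, and its RNA was described here in A549 cells, an established line from a human lung adenocarcinoma, grown with or without glutamine. The members are the 17 transcripts that GENCODE release 29 assigns to ASNS (ENSG00000070669), taken by their identifiers from 229420 transcripts in each per-library file. All 17 were present in the files, and ASNS is 1 of 58560 genes with a matched transcript. Poly-T selected RNA was sequenced in 4 libraries: 2 from control cells in complete DMEM with serum and antibiotics, and 2 from deprived cells that were washed and kept in DMEM lacking glutamine with serum. The protocol gives 24 hours of deprivation, and the sample labels agree for deprived replicate 1 but name 25 hours for replicate 2. The labels name no treatment and no wash for the controls, so glutamine loss, the wash and the change of medium cannot be told apart. Nothing in the labels says whether the libraries of a group came from separate cultures, so each p-value measures only the spread between these samples, which may be technical.

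Asparagine synthetase transfers the amide nitrogen of glutamine to aspartate and so makes asparagine. Without glutamine, the enzyme lacks its usual nitrogen donor and asparagine can become limiting. The kinase GCN2 senses uncharged tRNA, phosphorylates eIF2 alpha and so favours translation of the transcription factor ATF4, which with C/EBP proteins binds the nutrient-sensing response unit of the ASNS promoter. ASNS is a standard marker of this amino acid response.

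On GRCh38, ASNS lies on the minus strand of chromosome 7 from 97852118 to 97872542. The response unit is shown first because it is the regulatory sequence for which ASNS is known. The 300-base promoter window of RefSeq (GRCh38.p14), 250 bases before the start at 97872408 and 50 from it, held TGATGAAAC (response element 1) at positions -68 to -60 and GTTACA (response element 2) at positions -48 to -43, both on the ASNS strand. The 30 bases at chr7:97872449-97872478, minus strand, are given 5′ to 3′ with both elements in capitals.
ASNS response unit: caTGATGAAACttcccgcacgcGTTACAgg
Searched on both strands, TGATGAAAC occurred in 0.225% of 35116 RefSeq promoter windows of the same length, GTTACA in 6.66% and both together in 14 windows. In 1 of those windows, that of ASNS, the elements stood on the gene's strand with 11 bases between them. The shorter core TGATGNAA, which overlaps element 1, occurred in 3.62% of windows. Such matches describe letters and do not show binding. In GENCODE, ASNS-202 starts at 97872471, inside element 1, and ASNS-205 at 97872467, between the elements. ASNS-201 and ASNS-211 start before element 1. These letters therefore lie upstream of the RefSeq start but partly or wholly within the first exons of these transcripts.

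The annotation gives ASNS 13 protein-coding transcripts, 6 of them with an unknown coding end, 3 transcripts with a retained intron and 1 that is a target of nonsense-mediated decay, the pathway that degrades RNAs with a premature stop. The complete coding sequences of the protein-coding transcripts are of 3 kinds, which share their 3′ end and differ in where they start. ASNS-201, ASNS-202 and ASNS-203 encode 561 codons from 97869156, ASNS-205 and ASNS-209 encode 540 codons from 97869093, and ASNS-206 and ASNS-214 encode 478 codons from 97864496. The exon that holds the start is 74 bases shorter in the 540-codon transcripts than in ASNS-202, and the 478-codon transcripts skip that exon. The decay target, ASNS-213, has 401 codons from the same start as the 561-codon kind but ends earlier, at 97854689. The starts are printed because they are what separates the kinds, each as the first 30 bases with codons 1 and 2 in capitals, read from the GENCODE transcript sequences.
Start of 561 codons: ATGTGTggcatttgggcgctgtttggcagt
Start of 540 codons: ATGAAGattgcacacagaggtccagatgca
Start of 478 codons: ATGCAAcagcattttgaatttgaataccag
The TGT after the first start codon encodes the cysteine that attacks glutamine in the full-length enzyme. The 540-codon and 478-codon sequences begin 21 and 83 codons further on and lack it.

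**Figure D1:**
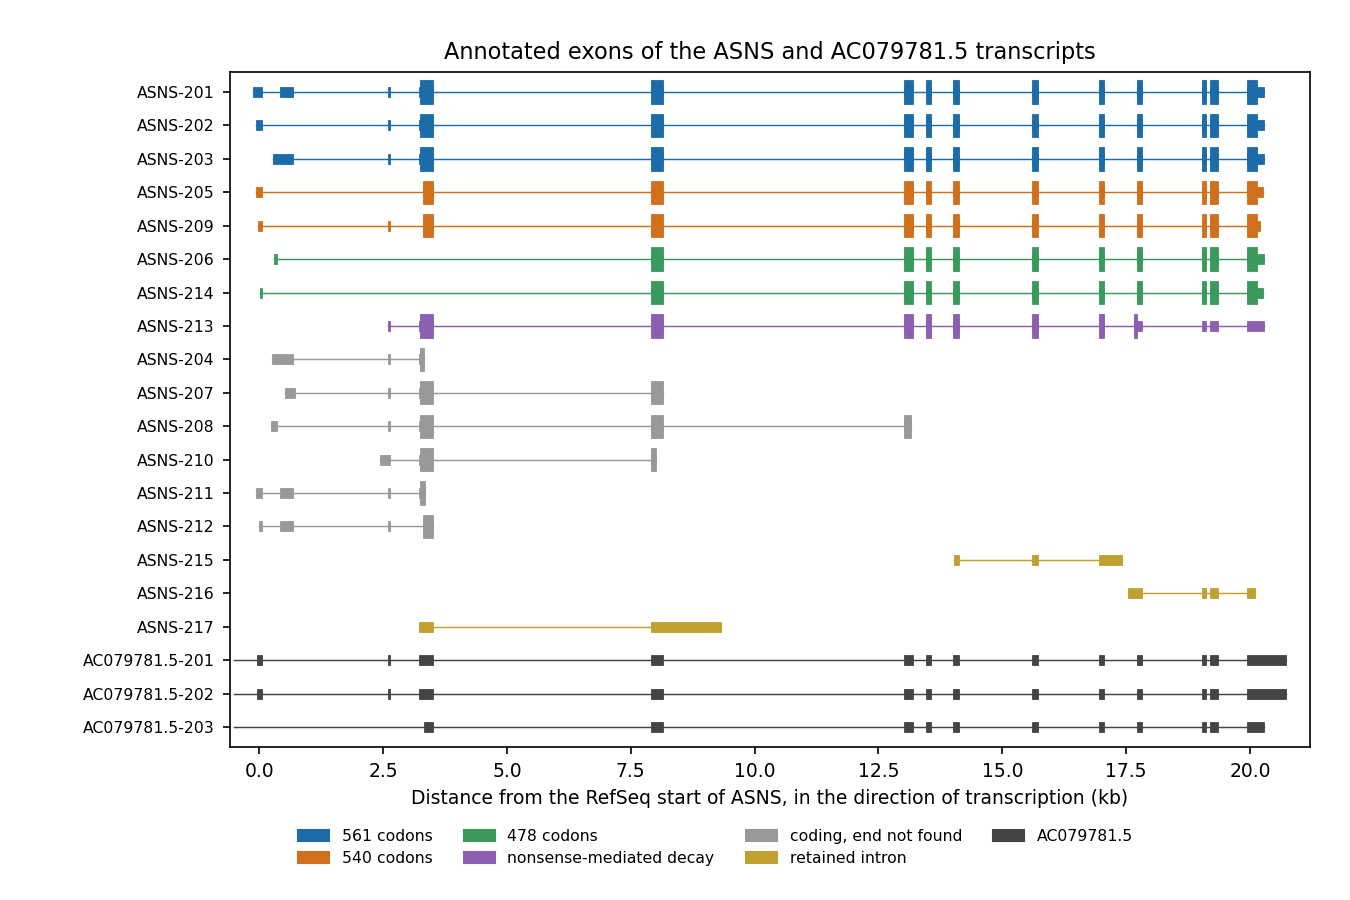
Exons of the 17 ASNS and 3 AC079781.5 transcripts, drawn to scale by distance in kb from the RefSeq start of ASNS; tall boxes are coding, low boxes non-coding, and colours give the kind of coding sequence. The complete ASNS transcripts share their 3′ exons and differ within the first few kb, and the AC079781.5 transcripts run over the same exons from starts beyond the left edge.

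ASNS RNA, summed over its transcripts, rose about 10-fold in deprived cells. It held 6111 and 5789 counts in control replicates 1 and 2, and 60441 and 57496 counts in deprived replicates 1 and 2. As CPM, the counts relative to library size after TMM scaling, the levels were 53.5 and 52.5 in the controls and 579 and 530 in the deprived libraries. Both deprived libraries were far above both controls, and libraries of a group lay within 1.09-fold of each other. The means were 53.01 ± 0.665 and 554 ± 34.6 CPM (SD, n = 2), 10.5-fold apart. The log2 fold change was 3.39 ± 0.09 (SE), with an adjusted p of 8.64e-06 by edgeR's quasi-likelihood test over 24527 genes, of which 25.2% were called higher at an adjusted p under 0.05 and 49.6% in either direction. In bulk RNA, more RNA per cell and a larger share of cells carrying it cannot be told apart.

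Among 9518 protein-coding genes with at least 10 CPM on average, ASNS ranked 3869 and 3969 by CPM in the controls and 246 and 260 after deprivation. By log2 fold change it ranked 69, and 0.714% of these genes had a larger increase. The ASNS increase held in every alternative that was run, from 3.05 with library size only to 3.46 without deprived replicate 2. Library totals ran from 101496318 to 123414592 counts. The A549 libraries held the epithelial markers EPCAM, CDH1, KRT8, KRT18 and KRT19, summing to 7570 and 7681 CPM in the controls and 2019 and 1730 in the deprived libraries. KRT8 and KRT18 made up most of these sums. EPCAM was low, at 2.21 and 2.70 CPM in the controls and 0.498 and 0.756 in the deprived libraries. Of 5 alveolar type II markers, SFTPA1 was at 0 in all libraries, and the 5 summed to 0.626 to 4.0 CPM. The 5 endothelial markers reached at most 0.910 CPM together and the 5 fibroblast markers 2.97, while the 5 blood markers summed to 14.01 CPM in control replicate 1 and to 0.940 to 1.98 in the others. The part of these shifts in the ASNS result was not tested.

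**Figure D2:**
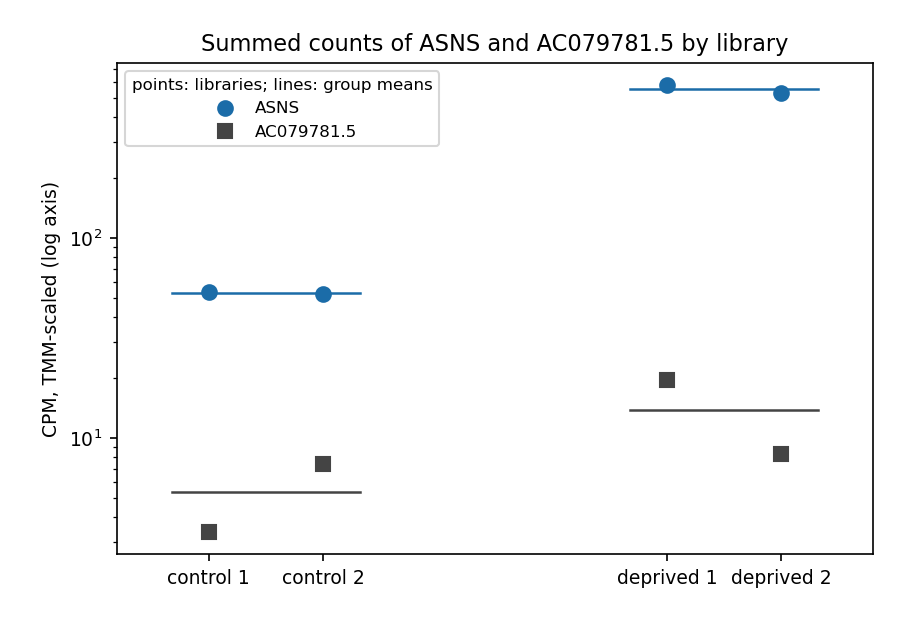
TMM-scaled CPM on a log axis of ASNS and AC079781.5, each summed over its transcripts, in the 4 libraries; points are libraries and lines group means. ASNS sits at 53.5 and 52.5 in the controls and at 579 and 530 in the deprived libraries, whereas AC079781.5 differs by more than 2-fold within each group.

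AC079781.5 (ENSG00000284707; chromosome 7, 97851688 to 97972985, minus strand) is a non-coding gene on the ASNS strand whose 3 transcripts are tagged as readthrough in GENCODE. Readthrough transcripts begin in an upstream gene or region and continue into the next one. It shares 1985 of its 4295 exonic bases with ASNS, which are 44.6% of the exonic bases of ASNS, and all 17 ASNS transcripts share some bases with it. Of the most abundant ones, ASNS-209 and ASNS-214 lie wholly within its exons. The shared part is 99% of ASNS-205, 98.9% of ASNS-202, 96.2% of ASNS-213 and 82% of ASNS-203. Reads within these shared bases cannot be assigned to either gene with certainty, unless they cross an exon junction that the other gene lacks. In the annotated exons, ASNS-205, ASNS-209 and ASNS-214 have such junctions. The deposited counts do not separate such reads. AC079781.5 had 386 and 811 counts in control cells and 2022 and 896 in deprived cells, or 3.38, 7.36, 19.4 and 8.26 CPM. Both deprived values lay above both controls, but deprived replicate 2 was close to control replicate 2. The log2 fold change was 1.36 ± 0.50 and was not called (edgeR adjusted p = 0.0656). Leaving out 1 library moved it both ways: it was called without control replicate 2 (2.01, adjusted p = 0.0187) or deprived replicate 2 (1.87, adjusted p = 0.00792), and was lower and not called without control replicate 1 (0.89, adjusted p = 0.173) or deprived replicate 1 (0.63, adjusted p = 0.267). The difference from ASNS was not tested.

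As the deposited counts divide the reads, the readthrough gene held a small part of the counts of the locus. It took 5.94% and 12.3% of the summed counts of both genes in the controls and 3.24% and 1.53% in the deprived libraries. With all of them added to the ASNS gene sum, its log2 fold change was 3.28 (edgeR adjusted p = 1.13e-05). The assignment among its own transcripts was not stable. AC079781.5-201 took 64.2% of the gene in deprived replicate 1 and 2.68% in deprived replicate 2, and AC079781.5-202 took 26.4% and 96.0%.

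Within ASNS, the division of counts among transcripts varied between libraries far more than their sum. In the controls, ASNS-202, which encodes the full-length enzyme, held most of the counts: 33.4 and 32.6 CPM, or 63.1% and 62.5% of the gene. In the deprived libraries it had 216 and 49.2 CPM, 37.8% and 9.55% of the gene. Its values in both deprived libraries exceeded the controls, but these libraries differed 4.38-fold from each other.

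ASNS-203, which has the same coding sequence and a first exon downstream of the RefSeq start, split the other way between the deprived libraries. It was at 0.615 and 0.828 CPM in the controls and at 1.90 and 76.1 CPM in the deprived libraries. Deprived replicate 2 stood apart from the other libraries in this transcript. ASNS-201, the third full-length transcript, stayed under 6 CPM in all libraries (0.303, 1.08, 5.90 and 2.37).

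The transcripts with shorter coding sequences were low in the controls and abundant in the deprived libraries. ASNS-205 (540 codons) had 6.35 and 3.76 CPM in the controls and 60.9 and 104 CPM after deprivation. ASNS-209, of the same coding sequence, had 0.797 and 6.20 CPM against 165 and 111 CPM. ASNS-214 (478 codons) had 4.58 CPM in control replicate 1 and 0 counts of 5789 in control replicate 2, against 83.9 and 112 CPM. Counting error alone would allow that 0 a share of up to 0.0518%. The transcript has an exon junction but no exonic base of its own, so its count can also depend on how reads were divided. In each of these, the lower deprived library stood well above the higher control. ASNS-206, the other 478-codon transcript, had 0 counts in all libraries.

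ASNS-213, the decay target, had 5.57 and 5.39 CPM in the controls and 29.4 and 49.5 CPM in the deprived libraries, 10.5% and 10.3% against 5.14% and 9.61% of the gene. The 3 retained-intron transcripts, ASNS-215, ASNS-216 and ASNS-217, have 121 to 1168 exonic bases found in no other transcript of either gene. They summed to 70 and 85 counts in the controls and 307 and 618 in the deprived libraries, from 0.508% to 1.47% of the gene in every library. The remaining transcripts are fragments with no annotated coding end, each at or below 2.47 CPM. Among the fragments, ASNS-204, ASNS-207, ASNS-208 and ASNS-210 were tested, and ASNS-211 and ASNS-212 were too low for the filter.

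Per length, the order of the transcripts also changed between libraries. In control replicate 1, ASNS-202 stood at 16.7 CPM per kb, followed by ASNS-205 at 3.40. In control replicate 2 it stood at 16.3 CPM per kb, followed by ASNS-209 at 3.42, ASNS-213 at 2.77 and ASNS-205 at 2.02. In deprived replicate 1 it was still first, at 108 CPM per kb against 91.2 for ASNS-209. In deprived replicate 2, ASNS-214 was first at 70.3 CPM per kb, and ASNS-202 was at 24.7. The order of the abundant transcripts, as the deposited counts divide the reads, therefore differed between the deprived replicates.

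**Figure D3:**
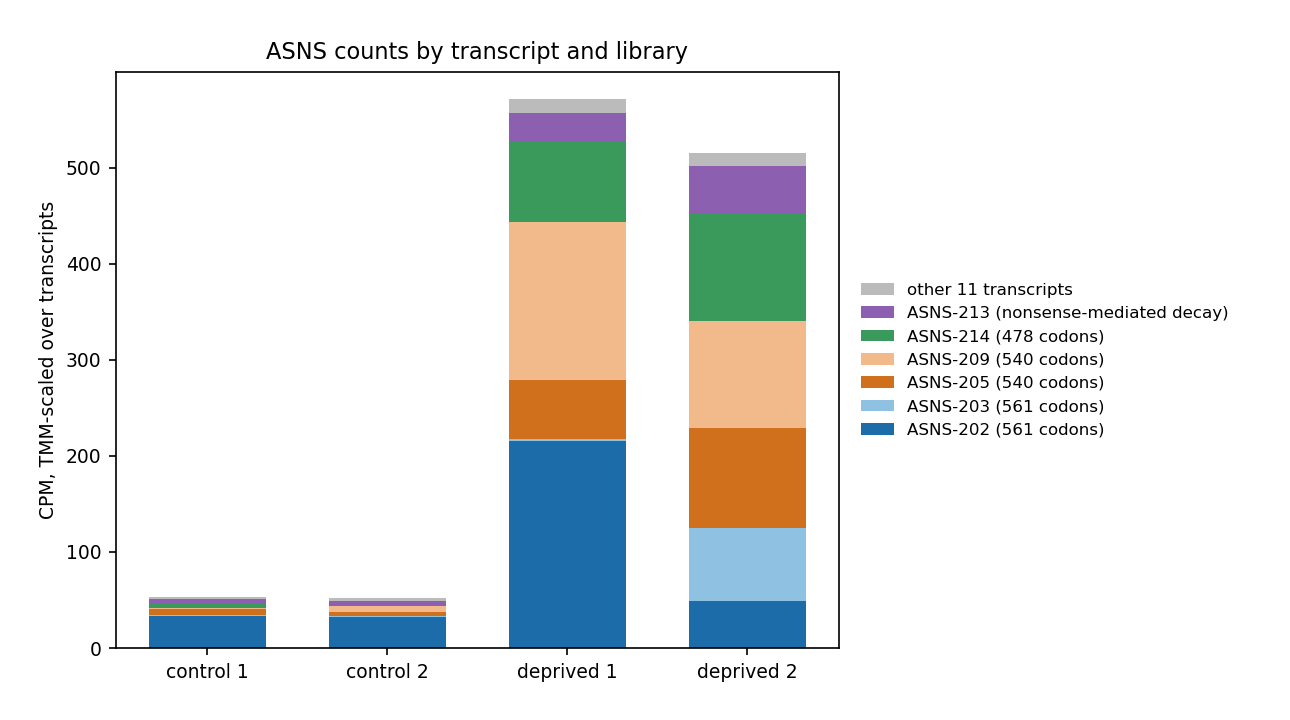
TMM-scaled CPM of ASNS by library, each bar split among the 6 most abundant transcripts and the other 11, with the kind of coding sequence in the legend. The bars of the deprived libraries are of similar height, but ASNS-202 falls from 216 CPM in replicate 1 to 49.2 in replicate 2, while ASNS-203 goes from 1.90 to 76.1.

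Tested one by one, no ASNS transcript passed the threshold. Of 14 tested transcripts, 14 had a positive log2 fold change, from 1.65 to 5.75 with a median of 2.81, beside a median of -0.04 over all 88815 tested transcripts. The highest, 5.75 for ASNS-203, rests on deprived replicate 2 and was 1.43 without it. In all 14, both deprived libraries were above both controls, which held for 28.5% of all tested transcripts. By edgeR's quasi-likelihood test 0 of the 14 were called, beside 0.719% of all transcripts called higher. At an unadjusted p under 0.05, 7 of the 14 were higher, beside 12.7% of all transcripts. The adjusted p ran from 0.0592 for ASNS-207 to 0.331 for ASNS-214, and the SE from 0.35 to 2.83, against 0.09 for the sum. DESeq2 called 10 of the 14 higher, in a fit that called 15.1% of all transcripts higher, and limma-voom called 0, beside 2.06%. The test takes the deposited counts as given and does not see the error of dividing reads among transcripts, of which 9 of 17 have no exonic base of their own. The most abundant, ASNS-202, ASNS-203, ASNS-205, ASNS-209, ASNS-213 and ASNS-214, are all among these 9. In the annotated exons, ASNS-205, ASNS-213 and ASNS-214 each have an exon junction found in no other transcript of either gene. The deposited counts do not separate reads across these junctions. How far the single levels rest on the division of reads is therefore not known.

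Summed by identical coding sequence, the 540-codon and 561-codon transcripts varied less between libraries of a group than they did singly. This grouping was applied to every gene, after the transcript values had been seen. The 540-codon group had 7.32 and 10.2 CPM in the controls and 228 and 219 CPM in the deprived libraries, which differed by 1.04-fold. It rose by 4.67 ± 0.22 on the log2 scale (edgeR adjusted p = 0.0183). The 561-codon group had 35.1 and 35.2 CPM in the controls and 225 and 130 CPM after deprivation (2.34 ± 0.32, adjusted p = 0.0424). The 478-codon group, at 4.69 and 0 CPM against 84.5 and 114, was not called (adjusted p = 0.282); all of its counts are those of ASNS-214.

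Of 9 coding groups tested, 4 were called higher, beside 4.79% of all 60722 groups. The other called groups were ASNS-213 (2.84 ± 0.34) and ASNS-207 (3.41 ± 0.38), each a group of 1 transcript. The same counts, tested as single transcripts, were not called (edgeR adjusted p = 0.0609 and 0.0592). In all 9 groups both deprived libraries were above both controls, which held for 29.8% of all groups. None of the 9 was called by edgeR when any 1 of the 4 libraries was left out, or with the replicate number as a block, and 1 was called without a low-count filter. The folds of the 540-codon group stayed at 4.44 to 4.91 on the log2 scale in the fits without a library, and those of the 561-codon group at 1.90 to 2.70, so the lost calls do not show a smaller change. DESeq2 called 6 of the 9, beside 14.2% of all groups, and limma-voom 3, beside 5.89%.

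No change in the make-up of ASNS RNA passed a test. The 561-codon group held 64.8% and 66.2% of ASNS counts in the controls and 39.2% and 24.8% in the deprived libraries. The 540-codon group held 13.5% and 19.1% against 39.6% and 41.7%, and the 478-codon group 8.66% and 0% against 14.7% and 21.7%. Shares in control and deprived libraries did not overlap in 6 of the 9 tested groups, these 3 among them, but the same held for 51.4% of 47453 coding groups. Exact binomial 95% intervals of the shares, which cover counting error only, were at most 1.26 percentage points to either side. By edgeR's diffSpliceDGE test, which compares each transcript's change with that of the other transcripts of its gene, 0 of 14 ASNS transcripts were called, and 0 had an unadjusted p under 0.05 (lowest p 0.106, adjusted p 0.836), beside 1.78% of all transcripts called. For coding groups, 0 of 9 were called, 0 had an unadjusted p under 0.05 and the lowest p was 0.0850, beside 1.68% of all groups called. Without control replicate 1, the library with all 529 control counts of ASNS-214, 1 coding group was called in this test. A change in the make-up was therefore not detectable against the spread between these libraries, which does not show that there was none.

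**Figure D4:**
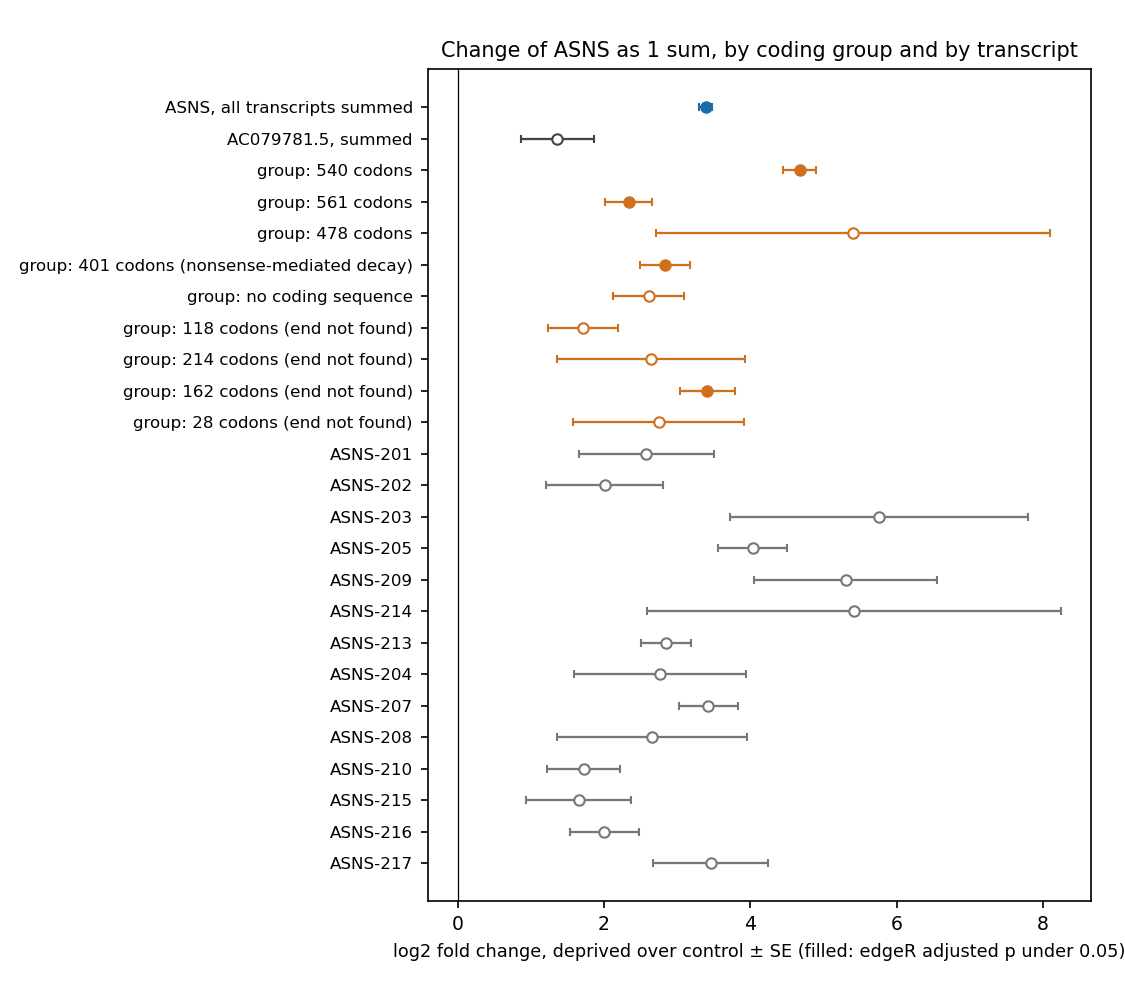
Log2 fold change, deprived against control, with its SE for the sum of ASNS, the sum of AC079781.5, the 9 tested coding groups and the 14 tested ASNS transcripts; filled points have an edgeR adjusted p under 0.05. All points lie right of 0, and the SE of the sum, 0.09, is the smallest shown.

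Sensors and transcription factors that act on ASNS or on ATF4 were mostly higher in deprived cells. Of 15 such genes, all tested, 12 were called higher and 0 lower, beside 25.2% and 24.4% of all genes, with a median log2 fold change of 0.90 beside -0.06 over all genes. At an unadjusted edgeR p under 0.05, 12 were higher and 0 lower, and DESeq2 and limma-voom also called 0 lower. This list, like the other gene lists below, was chosen with earlier results of these data known, so its counts only describe it. Scaling by library size only moved the median of all genes from -0.06 to -0.40, and 11 of the list were then called higher and 1 lower. EIF2S1, the alpha subunit of eIF2, rose from 173 and 195 to 356 and 332 CPM, and EIF2AK4, which encodes GCN2, from 71.2 and 71.5 to 84.3 and 82.2 CPM (0.22 ± 0.06, adjusted p = 0.0316), a call lost in 9 of 13 alternatives, with a value of -0.11 under library size only. GCN1, which activates GCN2, and IMPACT, which inhibits it, were not called.

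ATF4 had 165 and 132 CPM in the controls and 409 and 670 CPM in the deprived libraries. CEBPG, which encodes C/EBP gamma and pairs with ATF4, rose from 78.1 and 78.3 to 302.7 and 300.01 CPM (1.95 ± 0.07), and CEBPB, whose product binds the ASNS response unit, from 144 and 140 to 249 and 208 CPM (0.69 ± 0.10). The ATF4 targets that feed back on the response rose as well: ATF3 from 1.63 and 1.59 to 168 and 148 CPM (6.62 ± 0.11), DDIT3 by 5.35 ± 0.11 and TRIB3 by 3.12 ± 0.10. With protein-coding transcripts only, ATF3 held 0 and 4 counts in the controls against 9623 and 4569, and its fitted change was 11.72. NFE2L2, the oxidative stress regulator NRF2 that acts through ATF4, rose by 1.54 ± 0.08, the ATF4 relative ATF5 by 0.96 ± 0.12 and the zinc finger factor ZBTB1 by 0.56 ± 0.08. JDP2, a basic leucine zipper repressor, was at 7.29, 6.19, 9.15 and 6.93 CPM and was not called.

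Genes that use, make, break down or carry asparagine or aspartate went both ways. Of 25, 21 were tested, 8 were called higher and 6 lower, beside 25.2% and 24.4% of all genes, and the median log2 fold change was -0.13. GOT1, the cytosolic aspartate transaminase, rose from 49.2 and 54.8 to 224 and 187 CPM (1.98 ± 0.11). Its mitochondrial partner GOT2 was not called (192, 186, 179 and 167 CPM). With upper-quartile scaling (-0.24) and with library size only (-0.47), GOT2 was called lower. NARS1, which charges tRNA with asparagine in the cytosol, rose from 184 and 202 to 446 and 439 CPM (1.19 ± 0.08).

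NARS2, the mitochondrial counterpart of NARS1, was at 28.7 and 32.3 CPM in the controls and 25.2 and 25.4 CPM in the deprived libraries (-0.27 ± 0.09), and its call (adjusted p = 0.0440) was lost in 8 of 13 alternatives. ASRGL1, an asparaginase, fell from 7.68 and 8.03 to 3.31 and 2.97 CPM (-1.32 ± 0.16), while ASPG, another asparaginase, stayed at or below 0.111 CPM. AGA, which releases asparagine from glycoproteins in the lysosome, was at 22.5 and 23.9 CPM against 33.4 and 29.7 (0.44 ± 0.09) and was not called when only library sizes were scaled or when control replicate 1 was left out. ASS1, which joins aspartate to citrulline, rose from 13.4 and 15.1 to 25.2 and 19.9 CPM (0.67 ± 0.14). ADSS1, which uses aspartate to make AMP, fell from 7.03 and 7.54 to 2.38 and 1.85 CPM (-1.78 ± 0.20), while its paralogue ADSS2 was not called. CAD, which uses aspartate in pyrimidine synthesis, fell from 168 and 165 to 124 and 137 CPM. Among carriers, SLC1A4 (0.90 ± 0.08) and SLC1A5 (0.52 ± 0.09), which take up neutral amino acids, rose and the glutamate and aspartate carrier SLC1A1 fell from 9.03 and 10.8 to 1.16 and 1.43 CPM (-2.94 ± 0.20). SLC38A2, a carrier of small neutral amino acids, was at 868 and 975 CPM against 1112 and 1124 and missed the threshold (adjusted p = 0.0525). It was called higher with RLE scaling, DESeq2 and limma-voom, but its log2 fold change was 0.025 with protein-coding transcripts only. With library size only, 4 of the list were called higher, without AGA, ASS1, SLC1A5 and SLC25A12, and 10 lower.

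ASNSD1, GFPT1, GFPT2 and PPAT share the N-terminal glutamine amidotransferase fold of ASNS. GFPT1, which starts hexosamine synthesis, rose from 208 and 214 to 424 and 437 CPM (1.03 ± 0.07). ASNSD1, a relative of ASNS of little known function, rose by 0.42 ± 0.11 and PPAT, which starts purine synthesis, by 0.29 ± 0.08, calls that were each lost in 4 of 13 alternatives. Both were lost with library size only (0.089 and -0.041) and without control replicate 1 (0.27 and 0.22), that of ASNSD1 also with no filter and without deprived replicate 1, and that of PPAT with upper-quartile scaling and without deprived replicate 2. Of the 4, 3 were called higher and 1 lower, beside 25.2% and 24.4% of all genes. GFPT2 fell from 26.9 and 28.0 to 20.8 and 19.4 CPM (-0.45 ± 0.08). None of the 4 changed as much as ASNS in these values, a difference that was not tested.

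**Figure D5:**
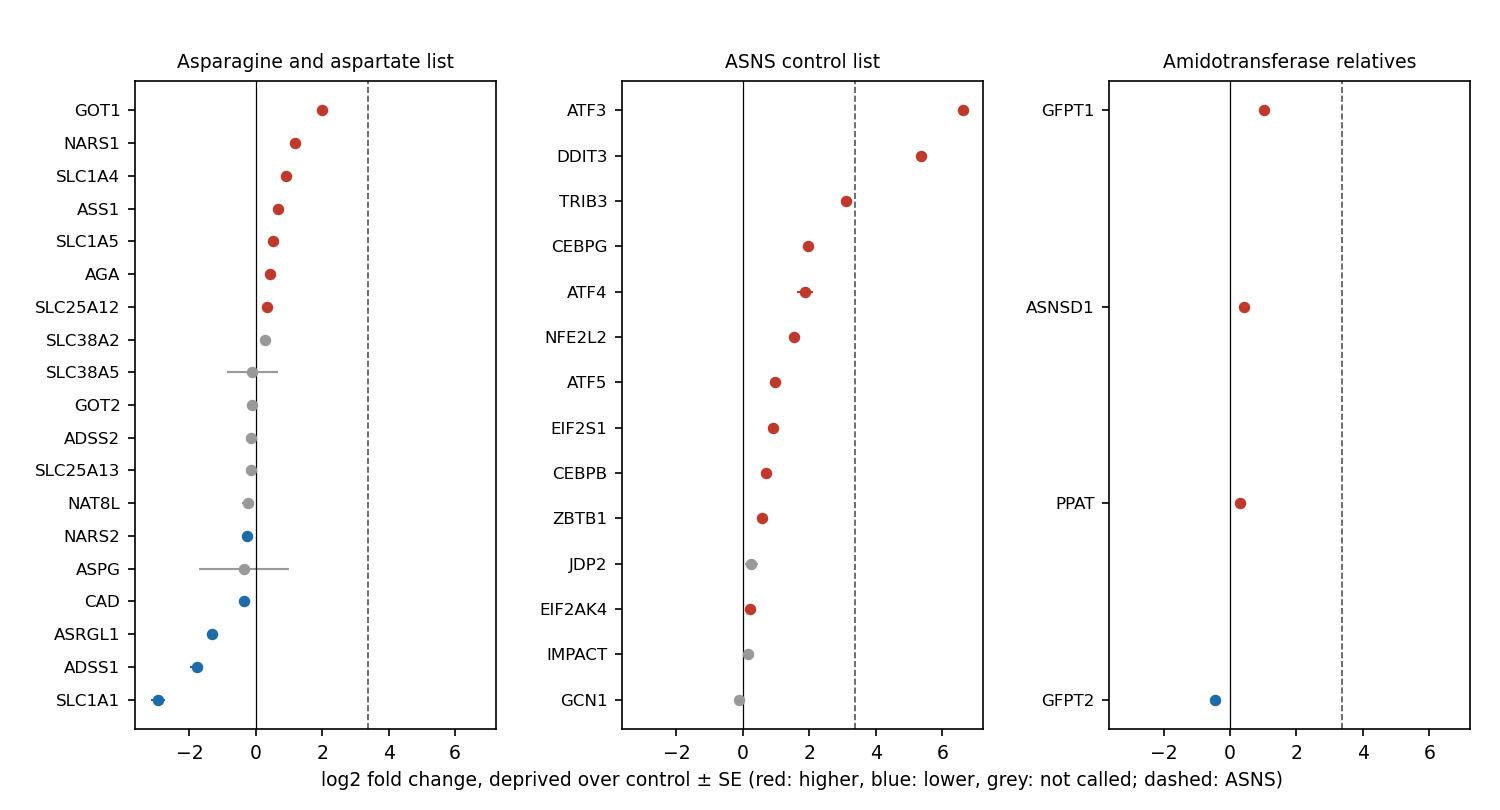
Log2 fold change, deprived against control, with its SE for tested genes of the asparagine and aspartate list, the ASNS control list and the amidotransferase relatives; red is called higher, blue lower and grey not called, and the dashed line is ASNS at 3.39. In the control list ATF3 and DDIT3 lie beyond ASNS, and in the other panels no gene reaches it.

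Neighbours of ASNS on chromosome 7 differed by less than 1 on the log2 scale. Of 7 protein-coding genes within 500 kb, TAC1, OCM2 and BHLHA15 stayed below 0.2 CPM, and 4 were tested. LMTK2 (98106885 to 98209633) rose from 45.3 and 42.8 to 53.7 and 59.5 CPM, BRI3 by 0.52 ± 0.08 and BAIAP2L1 by 0.63 ± 0.08. TECPR1 (98214624 to 98252251) had 18.3 and 17 CPM against 14.6 and 13.8 (-0.31 ± 0.10), a call lost in 9 of 13 alternatives, each single library left out among them. With library size only, 1 of the 3 increases, that of BAIAP2L1, was called, and that of LMTK2 was also lost with upper-quartile scaling and without control replicate 2. These counts, 3 higher and 1 lower, stand beside 25.2% and 24.4% of all genes.

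The 6 protein-coding genes whose levels in the 4 libraries followed ASNS most closely were found by the distance between log2 CPM values, each set against the mean of its own controls. They were GDF15, CCBE1, STARD13, DUSP6, KCNH1 and FGF2, at distances from 0.0448 to 0.139 on the log2 scale. GDF15, a secreted stress hormone, had 68.7 and 67.4 CPM in the controls and 749 and 659 CPM in the deprived libraries. FGF2, a growth factor, had 100.4 and 102 CPM against 1004 and 995, and DUSP6, a phosphatase of ERK, 9.38 and 8.25 CPM against 102.5 and 91.7. With 4 libraries in 2 groups, this likeness says mainly that the genes changed by a similar factor.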

How the data were processed

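RNA of 4 A549 libraries, 2 control and 2 glutamine-deprived, was measured as estimated counts per transcript, deposited by the authors as 1 file per library. Per the submitters' processing notes, HISAT2 2.0.5, featureCounts 1.5.0-p3, DESeq2 1.20.0 and build hg38 were named. How reads were divided among transcripts, the strand setting and the authors' annotation are not stated in these sources. The values were whole numbers, and totals were 101496318 and 101982373 counts in the controls and 123414592 and 120425759 in the deprived libraries.

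Identifiers were matched to GENCODE release 29 (GRCh38). Of 229420 transcripts, 205306 matched, with 98.04% to 98.25% of the counts. The 24114 others entered the transcript table but no gene sum. Counts were summed per gene, and also, a choice made after the transcript values were seen, over transcripts of a gene with the same coding sequence. R 4.3.3 with edgeR 4.0.16 was used (filterByExpr, TMM, quasi-likelihood test, Benjamini-Hochberg adjustment over the whole table, threshold 0.05), with diffSpliceDGE for shares. The SE is the fold change on the log2 scale over the root of the F statistic. The gene, transcript and transcript share fits were also run on simulated data, but not the coding groups. The simulated spread between libraries was smaller than that fitted here for transcripts, and no division of reads was simulated. That run therefore cannot say how well changes of transcripts, coding groups or shares are detected in these data. Alternatives were DESeq2 1.42.0, limma-voom (limma 3.58.1), other scalings and filters, protein-coding transcripts only, the replicate number as a block and leaving out each library.

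The members and the 4 gene lists were chosen with earlier results of these data known. The text names ASNS, AC079781.5, their transcripts, list genes and the 6 genes nearest to ASNS. Some list genes enter the counts and medians of the lists but are not reported here by name. The distance was taken over log2(CPM + 0.5), among genes of at least 10 CPM on average. Replicates of a group differed beyond sampling noise, with a chi-square per degree of freedom of 34.7 in the controls and 48.8 in the deprived libraries. A deposited table of long non-coding transcripts, which holds neither gene, was not used.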

Additional observations from a re-analysis of the deposited data

How the results depend on the processing

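The increase of the ASNS sum kept its direction and its call in all 14 alternatives, from 3.05 with library size only to 3.46, and from 3.33 to 3.46 when a library was left out (highest adjusted p 0.000202). AC079781.5 ranged from 0.63 to 2.01 with a library left out, called in 2 of those 4 fits. Of the ASNS transcripts, 3 of 13 tested were called with at least 50 counts in at least 2 libraries and 10 of 14 with DESeq2, against 0 otherwise. Of the coding groups, 4 were called in the reported fit, 1 without a filter, 0 with the replicate block and 0 with any library left out. Their shares gave 0 to 1 calls with a library left out. With library size only, the asparagine list had 4 higher and 10 lower, the control list 1 lower, the amidotransferase relatives 1 higher and the neighbours 1 higher. The relatives had 1 to 3 higher with a library left out. The lower neighbour, TECPR1, gave 0 calls with RLE scaling, no filter, the replicate block, DESeq2, protein-coding transcripts only and any library left out. Values that changed sign with library size only were SLC38A2 (-0.055), EIF2AK4 (-0.11), IMPACT (-0.17), JDP2 (-0.090) and PPAT (-0.041). The cause of these changes was not tested.

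The labels share replicate numbers but do not say that a number marks a shared culture or day, and deviations of same-numbered libraries were not correlated (-0.0235). With the replicate block the ASNS gene sum changed by 3.38 (adjusted p = 5.76e-05). Fits without 1 library leave 1 sample in a group, which is assumed to vary like the other group. The planned sum over ASNS transcripts that share no exonic base with AC079781.5 could not be made, because all 17 share some. Depth limits the smallest transcripts: ASNS-211 and ASNS-212 had at most 33 counts in a library. The 24114 unmatched transcripts could include some of ASNS, which was not analysed here.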

Other observations

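The letters of response element 1, TGATGAAAC, stood in a promoter window of 76 genes other than ASNS, none of them in the lists of asparagine genes, ASNS regulators or amidotransferases. Of these, 24 were tested, 8 were called higher (33.3%) and 5 lower (20.8%), with a median log2 fold change of 0.15, beside 25.2% of all genes called higher, 24.4% called lower and a median of -0.06. For the shorter core TGATGNAA, 425 of 1216 other genes were tested, 151 were called higher (35.5%) and 107 lower (25.2%), with a median of 0.17. These values describe the genes that passed the filter on low counts. The shares over all genes were not limited to genes with a promoter window, and windows without these letters were not compared. No test of the difference was made.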
